A study of Mus musculus with 12 samples.

Results

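The matrix metalloproteinases (MMPs), the ADAM and ADAMTS metalloproteinases and the tissue inhibitors of metalloproteinases (TIMPs) were compared between the post-stroke brains of mice transplanted with Tet2-KO and with WT bone marrow (BM) cells. Members were the genes whose mouse symbol carries one of these family names and a number and whose reads, summed over all mice, came to 20 or more. Of the 49315 genes counted in the series, 79 had such a symbol and 63 were kept, comprising 18 of 23 MMP, 22 of 33 ADAM, all 19 ADAMTS and all 4 TIMP genes. The 16 genes that were not kept were Mmp1a, Mmp1b, Mmp7, Mmp10, Mmp20, Adam2, Adam6a, Adam6b, Adam24, Adam25, Adam26a, Adam26b, Adam28, Adam29, Adam30 and Adam34.

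The data are bulk RNA-sequencing read counts per gene in the brain of each of 12 male mice at 14 d post-stroke. All recipients were irradiated CD45.1 Pep Boy mice, congenic to C57Bl6, that were 8 to 12 weeks old at transplantation with the head shielded. Both groups received marrow of which 90% was CD45.1 Tet2+/+, and the other 10% was CD45.2 Tet2-/- in 6 mice (Tet2-KO) and CD45.2 Tet2+/+ in 6 mice (WT), from donors 8 to 14 weeks old. All mice underwent 30 min of middle cerebral artery occlusion 8 to 10 weeks later. The brain cells of every recipient kept Tet2, so that by design only cells derived from the CD45.2 marrow lacked it, in the Tet2-KO group. The treatment entry of the labels names control cells for both groups, and the groups were taken from the titles and genotypes.

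MMPs are zinc proteases that cut collagens, elastin, laminins and other matrix proteins, and they are secreted or membrane-bound as inactive precursors. ADAMs are membrane proteins, several of which shed the outer parts of cytokines, growth factors and receptors, whereas ADAMTS enzymes are secreted and cut proteoglycans, procollagens or von Willebrand factor. TIMPs bind and block the active sites of these enzymes, and after stroke the families are best known for the opening of the blood-brain barrier and for the remodelling of the matrix in the scar.

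Expression is in CPM, the usual counts-per-million unit, on libraries scaled with the trimmed mean of M-values (TMM), and log2 fold changes are Tet2-KO over WT with their standard error (SE). The WT libraries held 12000261 to 15340787 counts and the Tet2-KO libraries 12625047 to 21049763, and the summed neuron markers of the brain were at 2951 CPM or more in every library. Tet2 lay between 126 and 146 CPM in WT and between 117 and 137 CPM in Tet2-KO mice, which does not check the labels because the recipients keep the gene. In bulk tissue, fewer cells of a type and less RNA per cell cannot be told apart. The p-values set the difference between the groups against the variation between these mice. The strand setting of the counting was not given in the sources used here, so the levels of 17 members whose exons overlap a gene on the other strand are uncertain, namely Mmp11, Mmp12, Mmp19, Mmp24, Mmp28, Adam1a, Adam3, Adam8, Adam15, Adam17, Adam19, Adamts4, Adamts7, Adamts8, Adamts9, Timp3 and Timp4.

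A pair of libraries stood apart within its groups among the members at an unadjusted p below 0.05. WT replicate 2 was the highest WT mouse in 26 of the 27 members that were lower with Tet2-KO BM cells at an unadjusted p below 0.05, and the lowest WT mouse in 6 of the 7 that were higher. Tet2-KO replicate 5 was the highest Tet2-KO mouse in 22 of the 27 lower members. Among the 23 tested members not at that level, WT replicate 2 was the highest WT mouse in 9 and Tet2-KO replicate 5 the highest Tet2-KO mouse in 6. Counts of members are therefore given with and without these mice.

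Of the 63 members, 57 passed the filter on low counts (filterByExpr) and were tested. With the quasi-likelihood test of edgeR and adjustment over all 20290 genes tested, 0 of the 57 had an adjusted p below 0.05, a level that 0.0246% of all genes reached. At an unadjusted p below 0.05, 27 members were lower in Tet2-KO mice and 7 were higher, against 12.2% of all genes that were lower and 10.8% that were higher. The 7 higher members of 57 were thus close to the share of all genes. The median log2 fold change was -0.18 over the 57 members and 0.0101 over all tested genes. By family, the MMPs had 13 of 18 lower and 2 higher with a median of -0.98. The ADAMs had 5 of 17 lower and 3 higher with a median of 0.0063, the ADAMTS genes 8 of 18 lower and 1 higher with a median of -0.20, and the TIMPs 1 of 4 lower and 1 higher with a median of -0.0988. With each of the 12 mice left out in turn, 28 of the 34 members kept an unadjusted p below 0.05 in every fit, and the other 6 were Mmp2, Mmp17, Mmp23, Adam19, Adamts3 and Adamts12. The same count over all genes was not computed, and each fit keeps all but 1 of the mice that selected these members.

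**Figure D1:**
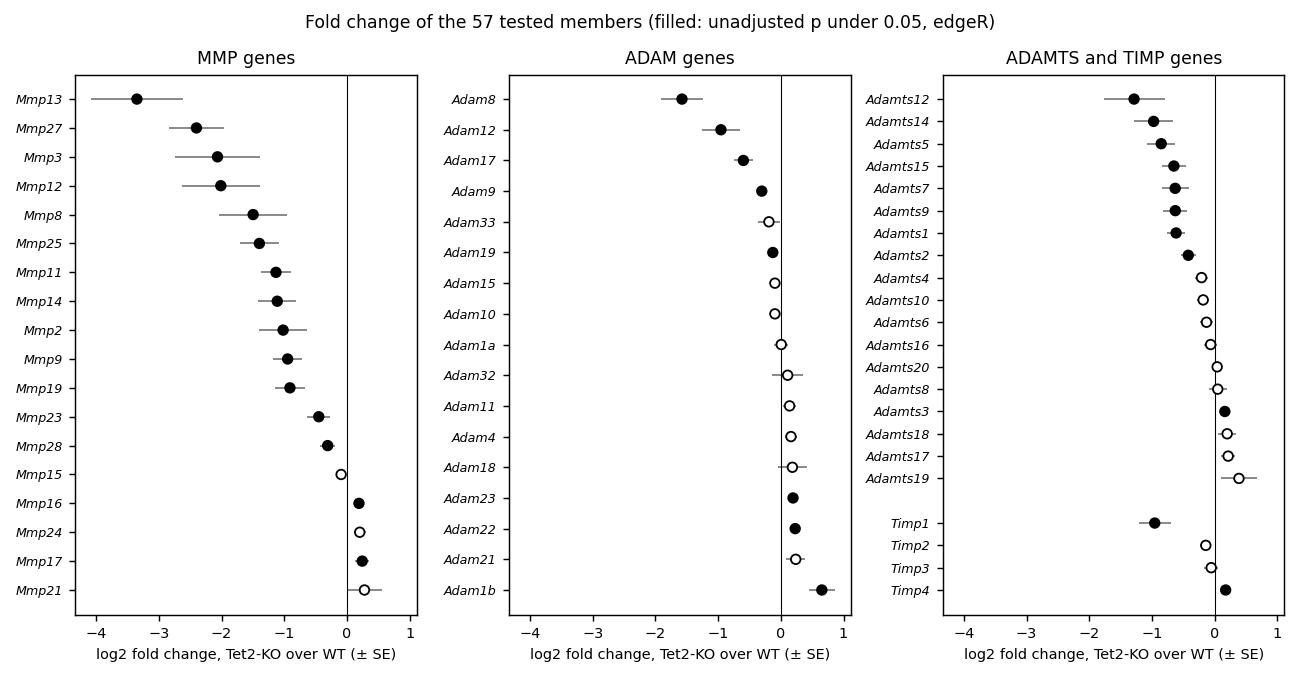
Log2 fold change (x axis, Tet2-KO over WT, with its standard error) of each of the 57 tested members, in panels for MMP, ADAM, and ADAMTS and TIMP genes; filled points have an unadjusted p below 0.05 with edgeR. The MMP genes reach furthest to the left, down to Mmp13 at -3.35, and the largest positive value is that of Adam1b at 0.65.

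How many members passed with adjustment varied with the test and with 1 mouse. The DESeq2 Wald test on the same genes placed 18 members lower with an adjusted p below 0.05, against 4.81% of all genes, and 2 higher, against 2.7%. Using limma-voom with sample weights, 22 members were lower, against 7.01% of all genes, and 3 were higher, against 2.91%. Without Tet2-KO replicate 5, edgeR placed 23 members lower with adjustment, against 7.3% of all genes, and 3 higher, against 3.7%. The 23 were 10 MMPs, 4 ADAMs, 8 ADAMTS genes and Timp1, and the 3 were Adam22, Adam23 and Timp4. Without WT replicate 2 the count was 0, against 0.0195% of all genes, and without both mice it was 19 lower, against 4.94%, and 2 higher, against 2.65%. Where these fits gave higher members, they were 2 or 3 of the 57, so their share rests on few genes. In each of 5 fits the same 17 members were past the threshold. The 5 were DESeq2 with and without the filter on low counts, limma-voom, and edgeR without Tet2-KO replicate 5 and without both mice. The edgeR fits that gave 0 members are not among them. The edgeR fits that are among them omit a mouse already seen to be high in most lower members. The share of all genes past the threshold in all 5 fits was not computed. The 17 members were Mmp9, Mmp11, Mmp13, Mmp14, Mmp19, Mmp25, Mmp27, Adam8, Adam9, Adam17, Adamts1, Adamts5, Adamts9, Adamts15 and Timp1, all lower, and Adam22 and Adam23, both higher.

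**Figure D2:**
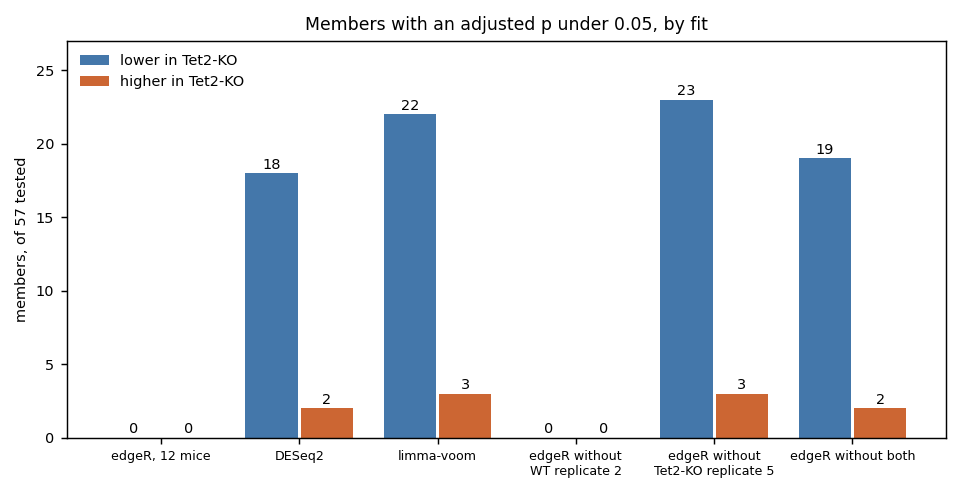
Number of members (y axis, of 57 tested) with an adjusted p below 0.05 in 6 fits, lower (blue) and higher (orange) with Tet2-KO BM cells. Both edgeR fits that include Tet2-KO replicate 5 give 0 members, and the other fits give 18 to 23 lower and 2 or 3 higher.

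Separation of the groups was counted with all mice and without Tet2-KO replicate 5, a mouse already seen to be high in most lower members. It was not counted without any other single mouse, and omitting a mouse can only add separated genes. With all 12 mice, all Tet2-KO mice had less than any WT mouse in 1 member, Mmp27, and more than any WT mouse in 1 member, Adam23, whereas 0.641% of all genes were separated downwards and 0.453% upwards. Without Tet2-KO replicate 5, 17 members were separated downwards, against 4.78% of all genes, and 2 upwards, against 2.41%. Of these 17, 9 were MMPs, 4 were ADAMs and 4 were ADAMTS genes, and the 2 separated upwards were Adam23 and Timp4.

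Per kilobase of exon, Timp2 was the most abundant member in either group, at 115 CPM per kb in WT and 104 CPM per kb in Tet2-KO mice. Adam10, the sheddase that starts the release of many neuronal membrane proteins, was at 24.9 and 23.3 CPM per kb. Adam22 was at 21.1 and 24.7 CPM per kb and Mmp17 at 18.5 and 21.85 CPM per kb. The members with the largest fold changes were far less abundant, with Mmp13 at 4.28 CPM per kb in WT and 0.452 CPM per kb in Tet2-KO mice and Mmp27 at 0.756 and 0.145 CPM per kb.

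The 4 members with the largest fold changes were neighbouring genes. In the mm10 genome 10 Mmp genes lie within 427072 bases of chromosome 9, between positions 7272514 and 7699585, and 5 of them were kept. In their order along the chromosome these are Mmp13, a collagenase, Mmp12, the macrophage elastase, Mmp3, a stromelysin that activates other MMPs, Mmp8, the neutrophil collagenase, and Mmp27. The other 5, Mmp1b, Mmp1a, Mmp10, Mmp20 and Mmp7, each had 0 to 11 counts in all 12 mice together. All 5 kept genes were lower at an unadjusted p below 0.05, with a median log2 fold change of -2.06. Among the 13 MMP genes elsewhere 8 were lower and 2 higher, with a median of -0.45.

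Mmp13 (ENSMUSG00000050578, chromosome 9, 7272514 to 7283331) lay between 1.98 and 20.2 CPM in WT mice (median 10.8) and between 0.0618 and 4.54 CPM in Tet2-KO mice (median 0.542). All Tet2-KO mice but replicate 5 were below every WT mouse, and that mouse was above WT replicate 6 alone. On the log2 scale the difference was -3.35 (SE 0.73, edgeR adjusted p = 0.110), the lowest of all 20290 tested genes, and -4.35 without Tet2-KO replicate 5 (edgeR adjusted p = 0.00949). Without WT replicate 2 Mmp13 was at -3.11 (edgeR adjusted p = 0.214). It was counted on 25 to 283 reads per WT mouse and 1 to 58 reads per Tet2-KO mouse.

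Mmp27 (ENSMUSG00000070323, chromosome 9, 7571396 to 7581885) had the smallest p of all members. It lay between 0.788 and 2.58 CPM in WT mice (median 1.55) and between 0 and 0.626 CPM in Tet2-KO mice (median 0.316). The groups did not overlap, on 11 to 36 reads per WT mouse and 0 to 10 per Tet2-KO mouse. Tet2-KO over WT came to -2.40 on the log2 scale (SE 0.43, edgeR adjusted p = 0.0816).

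Mmp3 (ENSMUSG00000043613, chromosome 9, 7445822 to 7455975) ranged from 4.75 to 36.7 CPM in WT mice (median 12.5) and from 0 to 7.43 CPM in Tet2-KO mice (median 3.69). WT replicate 2 held the highest value, more than that of any other WT mouse at up to 15.1 CPM, and Tet2-KO replicate 5 was again the only Tet2-KO mouse within the WT range. This amounted to a log2 fold change of -2.06 (SE 0.68, edgeR adjusted p = 0.137), and -1.87 without both mice (edgeR adjusted p = 0.118), so that Mmp3 was not past the adjusted threshold in either fit. In Tet2-KO replicate 1 Mmp3, Mmp12 and Mmp27 had 0 reads, which at this depth allows up to 0.185 CPM each, counting error only.

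Mmp12 (ENSMUSG00000049723, chromosome 9, 7344381 to 7369499) lay between 2.69 and 11.0 CPM in WT mice (median 4.39) and between 0 and 4.46 CPM in Tet2-KO mice (median 0.811). Tet2-KO replicate 5 was above all WT mice but replicates 2 and 4, and the other Tet2-KO mice had less than any WT mouse. Expressed as a log2 fold change, this was -2.01 (SE 0.63, edgeR adjusted p = 0.128) with all mice and -2.73 without Tet2-KO replicate 5 (edgeR adjusted p = 0.0168). Without WT replicate 2 Mmp12 was at -1.67 (edgeR adjusted p = 0.273). Mmp8 (ENSMUSG00000005800, chromosome 9, 7558456 to 7568485) was scarce, between 0.712 and 2.15 CPM in WT (median 1.42) and between 0.0767 and 1.96 CPM in Tet2-KO mice (median 0.222). Apart from Tet2-KO replicate 5, which was second to WT replicate 2 alone, no Tet2-KO mouse was above 0.564 CPM. The log2 fold change of Mmp8 was -1.50 (SE 0.55, edgeR adjusted p = 0.149), and -2.41 without Tet2-KO replicate 5 (edgeR adjusted p = 0.00539). Without WT replicate 2 Mmp8 was at -1.34 (edgeR adjusted p = 0.31).

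**Figure D3:**
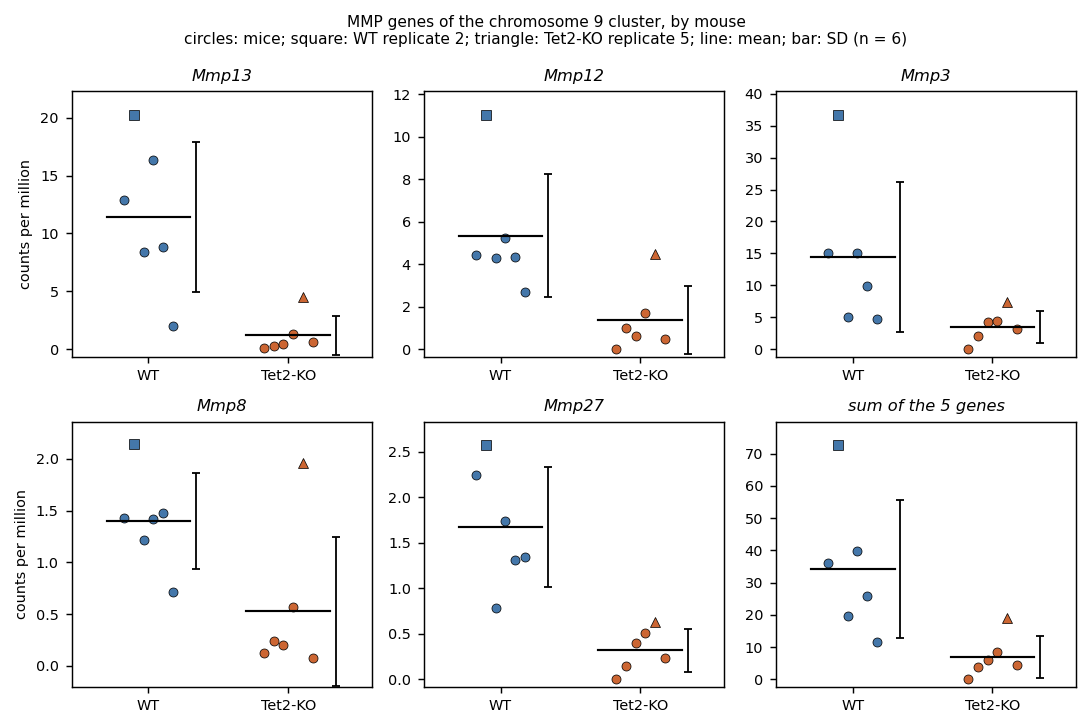
CPM (y axis) of the 5 kept MMP genes of the chromosome 9 cluster and of their sum in each of 6 WT (blue) and 6 Tet2-KO (orange) mice, with means and SD. The sum runs from 11.5 to 72.7 CPM in WT mice and from 0.185 to 19.0 CPM in Tet2-KO mice, with WT replicate 2 (square) and Tet2-KO replicate 5 (triangle) highest in their groups.

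The bases before the start sites of these 5 genes are shown because AP-1, the Fos and Jun factors, is a known regulator of several of them. RefSeq (GRCm38.p6) gave a window of 250 bases before to 50 bases after a start for 38 of the 63 members. The letters TGANTCA, which read the same way on both strands, were found in the windows of 6 of these 38, namely Mmp3, Mmp12, Mmp13, Adam1b, Adam19 and Adam20, and in 8.97% of all genes with a window. The 120 bases before each start follow, all on the + strand of chromosome 9, with a TGANTCA match in capitals, and for Mmp12 at the second of its annotated starts, which lies in an intron of the longer transcript.
Mmp13, chr9:7272394-7272513: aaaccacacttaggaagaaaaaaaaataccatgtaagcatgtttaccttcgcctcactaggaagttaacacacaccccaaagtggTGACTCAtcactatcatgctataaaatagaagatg
Mmp12, chr9:7347254-7347373: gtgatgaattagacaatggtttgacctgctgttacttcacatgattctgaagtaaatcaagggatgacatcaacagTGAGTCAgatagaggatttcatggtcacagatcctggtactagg
Mmp3, chr9:7445702-7445821: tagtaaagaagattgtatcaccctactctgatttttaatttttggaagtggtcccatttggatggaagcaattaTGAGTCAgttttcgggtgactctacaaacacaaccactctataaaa
Mmp8, chr9:7558309-7558428: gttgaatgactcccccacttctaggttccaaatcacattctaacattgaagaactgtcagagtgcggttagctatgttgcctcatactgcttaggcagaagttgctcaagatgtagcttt
Mmp27, chr9:7571276-7571395: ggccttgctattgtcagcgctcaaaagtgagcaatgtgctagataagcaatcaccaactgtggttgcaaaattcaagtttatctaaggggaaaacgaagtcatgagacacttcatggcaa

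The match lay 28 bases before the start of Mmp13, 37 before that of Mmp12 and 39 before that of Mmp3. It was not found in the windows of Mmp8 and Mmp27, nor before the first annotated start of Mmp12. Among the members with a window, it was present in 4 of 19 that were lower at an unadjusted p below 0.05, in 1 of 5 that were higher and in 0 of 12 that were tested and neither. The share over all genes with a window was 8.97%. The 4 were Mmp3, Mmp12, Mmp13 and Adam19, and the letters were chosen because AP-1 is known to regulate several cluster genes. These counts therefore do not test a link between the letters and the fold changes.

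Both gelatinases, which cut denatured collagen and basement membrane collagen, were lower at an unadjusted p below 0.05. Mmp9 (ENSMUSG00000017737, chromosome 2), the gelatinase of neutrophils and other leukocytes, lay between 3.04 and 7.87 CPM in WT mice (median 4.32) and between 1.61 and 3.29 CPM in Tet2-KO mice (median 2.535). In Tet2-KO mice 4 of 6 values were below every WT mouse. On the log2 scale the difference was -0.95 (SE 0.24, edgeR adjusted p = 0.110) and it was -1.03 without Tet2-KO replicate 5 and -0.83 without both mice (edgeR adjusted p = 0.0224 and 0.0242). Without WT replicate 2 alone Mmp9 was at -0.74 (edgeR adjusted p = 0.214).

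Mmp2 (ENSMUSG00000031740, chromosome 8), the gelatinase of stromal cells, lay between 18.0 and 41.8 CPM in WT mice (median 23.0) and between 4.94 and 26.4 CPM in Tet2-KO mice (median 9.45). Tet2-KO replicate 5 exceeded all WT mice but replicate 2, and WT replicate 2 exceeded all other mice. Tet2-KO over WT came to -1.02 on the log2 scale (SE 0.39, edgeR adjusted p = 0.165). It was -1.35 and past the threshold without Tet2-KO replicate 5 (edgeR adjusted p = 0.0313), -1.15 and past it with limma-voom (adjusted p = 0.0101), and -1.15 without both mice (edgeR adjusted p = 0.0547). Mmp2 was not past the threshold with DESeq2 (-1.01, adjusted p = 0.0853) or without WT replicate 2 (-0.82, edgeR adjusted p = 0.35). The unadjusted p of Mmp2 was no longer below 0.05 without WT replicate 2 or without Tet2-KO replicate 2.

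Among the 6 membrane-type MMPs the direction was divided, with 2 lower and 2 higher before adjustment (p below 0.05) and a median log2 fold change of 0.0492. Mmp14 (ENSMUSG00000000957, chromosome 14), which activates pro-MMP2 at the cell surface, lay between 39.7 and 92.7 CPM in WT mice (median 58.7) and between 17.3 and 52.7 CPM in Tet2-KO mice (median 22.6). All Tet2-KO mice but replicate 5 were below every WT mouse. The value of Mmp14 was -1.11 on the log2 scale (SE 0.31, edgeR adjusted p = 0.121), and -1.38 without Tet2-KO replicate 5 (edgeR adjusted p = 0.0142). Without WT replicate 2 it was -0.95 (edgeR adjusted p = 0.244). Mmp25 (ENSMUSG00000023903, chromosome 17), a membrane-anchored MMP best known from neutrophils, lay between 1.345 and 3.36 CPM in WT mice (median 2.57) and between 0.371 and 1.96 CPM in Tet2-KO mice (median 0.882). Its log2 fold change was -1.40 (SE 0.31, edgeR adjusted p = 0.110), with Tet2-KO replicate 5 as the only Tet2-KO value inside the WT range.

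The 2 membrane-type MMPs that were higher at an unadjusted p below 0.05 were Mmp16 and Mmp17, and DESeq2 and limma-voom each gave 3, with Mmp24. Mmp17 was above that level in 8 of the 12 fits that left out 1 mouse, namely WT replicates 2, 3, 5 and 6 and Tet2-KO replicates 1, 2, 3 and 6, with a p of up to 0.103. It (ENSMUSG00000029436, chromosome 5) lay between 93.8 and 138 CPM in WT mice (median 127) and between 112 and 169 CPM in Tet2-KO mice (median 149), a value on the log2 scale of 0.24 (SE 0.11, edgeR adjusted p = 0.208). Mmp16 (ENSMUSG00000028226, chromosome 4) lay between 46.8 and 63.55 CPM in WT mice (median 61.5) and between 62.8 and 76.5 CPM in Tet2-KO mice (median 66.35), a log2 difference of 0.19 (SE 0.073, edgeR adjusted p = 0.152). In Mmp16 5 of 6 Tet2-KO mice were above every WT mouse, and in Mmp17 3 of 6 were. Mmp24, which cleaves cadherins at neuronal contacts, had a log2 fold change of 0.20 and Mmp15 one of -0.0932, with unadjusted p-values of 0.0553 and 0.289.

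Of the remaining MMPs, Mmp11 (ENSMUSG00000000901, chromosome 10), a stromelysin activated by furin inside the cell, lay between 4.99 and 13.7 CPM in WT mice (median 7.78) and between 2.66 and 6.42 CPM in Tet2-KO mice (median 3.70). This amounted to a log2 fold change of -1.13 (SE 0.24, edgeR adjusted p = 0.110), and Tet2-KO replicate 5 was the only Tet2-KO mouse in the WT range. Exons of Mmp11 overlap those of Chchd10, a far more abundant gene, on the other strand over 155 bases. Mmp19 (ENSMUSG00000025355, chromosome 10) lay between 5.755 and 10.8 CPM in WT mice (median 6.37) and between 2.29 and 6.18 CPM in Tet2-KO mice (median 3.24), with 5 of 6 Tet2-KO mice below the WT range. Its log2 fold change was -0.91 (SE 0.24, edgeR adjusted p = 0.114), and it overlaps Tmem198b on the other strand over 789 bases. Mmp23 and Mmp28 had smaller differences, -0.45 and -0.31 on the log2 scale (unadjusted p = 0.0261 and 0.0217), and Mmp21 had 5 to 26 reads per mouse and a value of 0.28 (unadjusted p = 0.324).

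The ADAMs were grouped by kind, and these kinds were chosen with earlier results of these data known. All 8 proteolytic ADAMs of somatic tissues had negative fold changes, 5 of them at an unadjusted p below 0.05, with a median of -0.25. All 3 ADAMs of nervous tissue that lack an active protease had positive ones, 2 of them at that level, with a median of 0.19. The 6 tested ADAMs of the reproductive tract and other tissues were all positive as well, with 1 of them, Adam1b, at that level. Among these, Adam1a and Adam32 changed sign in fits with 1 mouse left out.

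Adam8 (ENSMUSG00000025473, chromosome 7), a sheddase of leukocytes and activated microglia that cuts cell adhesion molecules, lay between 18.7 and 34.3 CPM in WT mice (median 26.7) and between 4.88 and 19.95 CPM in Tet2-KO mice (median 6.81). Tet2-KO replicate 5 was above WT replicate 6 alone, and the next Tet2-KO mouse was at 9.64 CPM, far below the WT range. Expressed as a log2 fold change, this was -1.58 (SE 0.34, edgeR adjusted p = 0.110), a 2.98-fold lower level. Without Tet2-KO replicate 5 it was -1.97, with the smallest adjusted p of any member in that fit (edgeR adjusted p = 8.50e-04). Without WT replicate 2 it was -1.48 (edgeR adjusted p = 0.214).

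Adam17 (ENSMUSG00000052593, chromosome 12), which sheds tumour necrosis factor and its receptors, lay between 38.2 and 62.7 CPM in WT mice (median 40.4) and between 22.6 and 39.5 CPM in Tet2-KO mice (median 28.2). In 5 of 6 Tet2-KO mice it was below every WT mouse. On the log2 scale the difference was -0.60 (SE 0.15, edgeR adjusted p = 0.112), with 311 bases shared with Iah1 on the other strand. Adam9 (ENSMUSG00000031555, chromosome 8) lay between 64.1 and 78.5 CPM in WT mice (median 70.0) and between 50.3 and 70.8 CPM in Tet2-KO mice (median 53.8), a value on the log2 scale of -0.30 (SE 0.078, edgeR adjusted p = 0.110). Adam12 (ENSMUSG00000054555, chromosome 7), an ADAM of mesenchymal cells, lay between 24.6 and 42.0 CPM in WT mice (median 32.3) and between 10.4 and 34.3 CPM in Tet2-KO mice (median 12.1). Tet2-KO replicate 5 held the highest Tet2-KO value of both genes, within the WT range, and the log2 fold change of Adam12 was -0.96 (SE 0.30, edgeR adjusted p = 0.131).

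Adam10 (ENSMUSG00000054693, chromosome 9), the other main sheddase, had overlapping groups. It lay between 116 and 137 CPM in WT mice (median 121) and between 107 and 122 CPM in Tet2-KO mice (median 115), a log2 difference of -0.0945 (SE 0.0512, unadjusted p = 0.0842, edgeR adjusted p = 0.280). Adam19 was at -0.13 (unadjusted p = 0.0298), and Adam15 at -0.0946 and Adam33 at -0.19 were not below an unadjusted p of 0.05.

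Adam22 (ENSMUSG00000040537, chromosome 5) and Adam23 (ENSMUSG00000025964, chromosome 1) encode the neuronal receptors of the secreted LGI proteins at synapses. Adam22 lay between 261 and 332 CPM in WT mice (median 308) and between 319 and 386 CPM in Tet2-KO mice (median 361), and 4 of 6 Tet2-KO mice were above every WT mouse. Tet2-KO over WT came to 0.23 on the log2 scale (SE 0.066, edgeR adjusted p = 0.120). Adam23 lay between 220 and 253 CPM in WT mice (median 243) and between 254 and 303 CPM in Tet2-KO mice (median 270), a value on the log2 scale of 0.19 (SE 0.057, edgeR adjusted p = 0.121). All 6 Tet2-KO mice were above all 6 WT mice in Adam23, by a margin of 254.2 against 252.9 CPM between the nearest mice. Adam11, the third of this kind, had a log2 fold change of 0.14 (unadjusted p = 0.177).

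Adam1b (ENSMUSG00000062438, chromosome 5), a subunit of fertilin in sperm, had the largest positive fold change of the 57 tested members on few reads. It lay between 0.711 and 1.64 CPM in WT mice (median 0.980, 11 to 20 reads) and between 1.18 and 2.10 CPM in Tet2-KO mice (median 1.65, 20 to 35 reads), and the groups overlapped. This amounted to a log2 fold change of 0.65 (SE 0.21, edgeR adjusted p = 0.125). Adam3, Adam5, Adam7, Adam20 and Adam39, which belong to the same group of mostly male reproductive genes, had at most 17 reads in any mouse and were not tested.

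**Figure D4:**
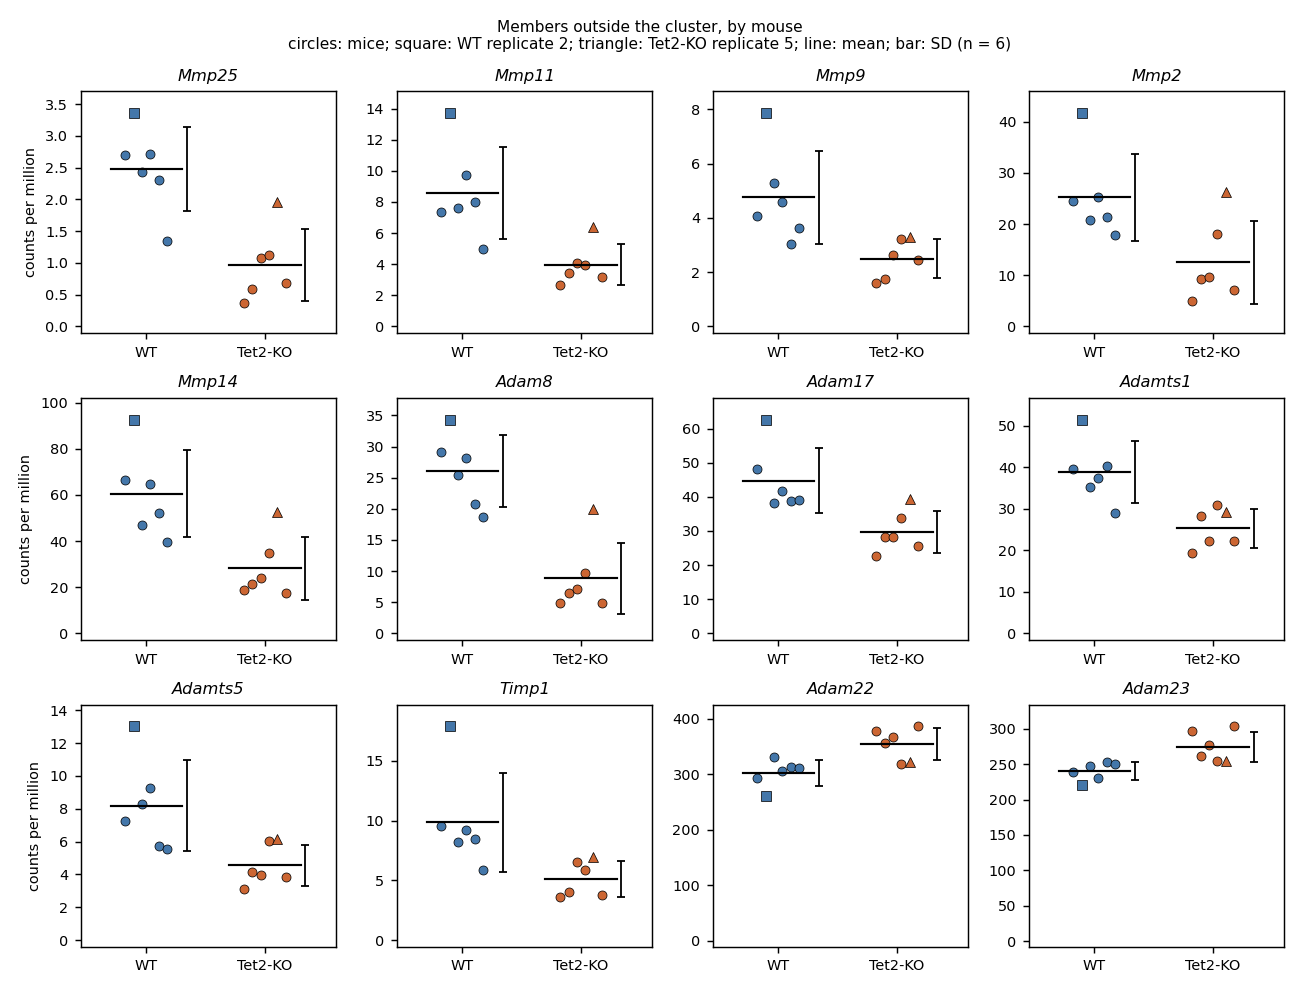
CPM (y axis) of 12 members outside the cluster in each of 6 WT (blue) and 6 Tet2-KO (orange) mice, with means and SD. The first 10 genes, Mmp25 to Timp1, have lower Tet2-KO means, and Adam22 and Adam23 have higher ones, with no overlap in Adam23.

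Of the 18 tested ADAMTS genes, the proteoglycanases, which cut aggrecan, brevican and versican, had 4 of 7 lower at an unadjusted p below 0.05. Adamts1 (ENSMUSG00000022893, chromosome 16) lay between 29.0 and 51.4 CPM in WT mice (median 38.4) and between 19.3 and 30.8 CPM in Tet2-KO mice (median 25.2), and 4 of 6 Tet2-KO mice were under every WT mouse. Expressed as a log2 fold change, this was -0.62 (SE 0.14, edgeR adjusted p = 0.110). Adamts5 (ENSMUSG00000022894), its neighbour on chromosome 16, lay between 5.54 and 13.02 CPM in WT mice (median 7.79) and between 3.09 and 6.18 CPM in Tet2-KO mice (median 4.06), a log2 difference of -0.85 (SE 0.22, edgeR adjusted p = 0.112). The highest Tet2-KO mice of both genes, replicates 4 and 5, lay within the low end of the WT range.

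Adamts15 and Adamts9 were lower too, with log2 fold changes of -0.65 (SE 0.19, edgeR adjusted p = 0.121) and -0.63 (SE 0.19, edgeR adjusted p = 0.125), and in each 5 of 6 Tet2-KO mice were under the whole WT range. Adamts4 (ENSMUSG00000006403, chromosome 1), the aggrecanase most abundant per kilobase in these brains at 8.88 CPM per kb in WT mice, was not below an unadjusted p of 0.05. It lay between 37.0 and 50.6 CPM in WT mice (median 40.8) and between 30.8 and 44.2 CPM in Tet2-KO mice (median 35.55), a value on the log2 scale of -0.21 (SE 0.10, unadjusted p = 0.0601, edgeR adjusted p = 0.237). Adamts8 and Adamts20 were at 0.0482 and 0.0391 (unadjusted p = 0.738 and 0.618).

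Both ADAMTS enzymes that cut cartilage oligomeric matrix protein were lower at an unadjusted p below 0.05. Adamts12 (ENSMUSG00000047497, chromosome 15) lay between 10.95 and 22.0 CPM in WT mice (median 11.8) and between 1.92 and 14.7 CPM in Tet2-KO mice (median 2.81), a log2 difference of -1.29 (SE 0.49, edgeR adjusted p = 0.162). WT replicate 2 and Tet2-KO replicate 5 were the highest mice of their groups, and the value without Tet2-KO replicate 5 was -1.81 (edgeR adjusted p = 0.0196). Without WT replicate 2 its unadjusted p was 0.0592, which left 1 gene of this pair below 0.05. Adamts7 was at -0.63 (SE 0.21, edgeR adjusted p = 0.132).

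The 3 procollagen N-proteinases, which trim the ends of fibrillar procollagens, were divided. Adamts14 was at -0.97 (SE 0.31, edgeR adjusted p = 0.125) and Adamts2 at -0.42 (SE 0.12, edgeR adjusted p = 0.121), whereas Adamts3, which also processes the lymphatic growth factor VEGF-C, was at 0.16 (SE 0.067, edgeR adjusted p = 0.172). Adamts3 lay between 25.25 and 29.5 CPM in WT mice and between 27.8 and 35.1 CPM in Tet2-KO mice, and 3 of 6 Tet2-KO mice were above every WT mouse. Its unadjusted p was not below 0.05 without WT replicate 1 or 2 or without Tet2-KO replicate 3 or 6. None of the other 6 tested ADAMTS genes, Adamts6, Adamts10, Adamts16, Adamts17, Adamts18 and Adamts19, had an unadjusted p below 0.05. Adamts13, the protease of von Willebrand factor, had 4 to 9 reads per WT mouse and 4 to 8 per Tet2-KO mouse and was not tested, at 0.391 ± 0.152 CPM (SD, n = 6) and 0.372 ± 0.116 CPM (SD, n = 6).

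The TIMPs differed from one another. Timp1 (ENSMUSG00000001131, chromosome X), the inducible inhibitor, lay between 5.86 and 17.9 CPM in WT mice (median 8.86) and between 3.58 and 6.96 CPM in Tet2-KO mice (median 4.94). In 4 of 6 Tet2-KO mice it was below every WT mouse, and WT replicate 2 stood far above the other WT mice, the next of which was at 9.53 CPM. On the log2 scale the difference was -0.96 (SE 0.26, edgeR adjusted p = 0.116), and -0.80 without WT replicate 2 and Tet2-KO replicate 5 (edgeR adjusted p = 0.0185). Without WT replicate 2 alone Timp1 was at -0.70 (edgeR adjusted p = 0.214).

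Timp4 (ENSMUSG00000030317, chromosome 6), a TIMP prominent in brain and heart, lay between 43.0 and 53.3 CPM in WT mice (median 51.3) and between 49.7 and 61.9 CPM in Tet2-KO mice (median 56.3), a value on the log2 scale of 0.17 (SE 0.062, edgeR adjusted p = 0.139). In 5 of 6 Tet2-KO mice it was above every WT mouse. Timp4 lies within Syn2, a synaptic vesicle gene with 77508 reads over all mice against 9594 for Timp4, and their exons share 90 bases on opposite strands. Timp2 (ENSMUSG00000017466, chromosome 11) lay between 412 and 557 CPM in WT mice (median 428) and between 350 and 470 CPM in Tet2-KO mice (median 388), a log2 difference of -0.14 (SE 0.086, unadjusted p = 0.119, edgeR adjusted p = 0.337). Timp3 (ENSMUSG00000020044, chromosome 10), which is held in the matrix and also blocks Adam17 and Adamts4, lay between 102.5 and 137 CPM in WT mice (median 108) and between 89.3 and 140 CPM in Tet2-KO mice (median 105), a value on the log2 scale of -0.0554 (SE 0.112, edgeR adjusted p = 0.812). In Timp2 4 of 6 Tet2-KO mice had less than any WT mouse, whereas in Timp3 the groups overlapped over most of their range, and the sign of Timp3 was lost without WT replicate 2.

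Across the 34 members at an unadjusted p below 0.05, single mice took the same rank in many genes. Tet2-KO replicate 1 was the lowest Tet2-KO mouse in 20 of the 27 lower members, and WT replicate 6 the lowest WT mouse in 16 of them. The sum of the 5 cluster genes, for instance, was 0.185 CPM in Tet2-KO replicate 1, 11.5 CPM in WT replicate 6, 19.0 CPM in Tet2-KO replicate 5 and 72.7 CPM in WT replicate 2.

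**Figure D5:**
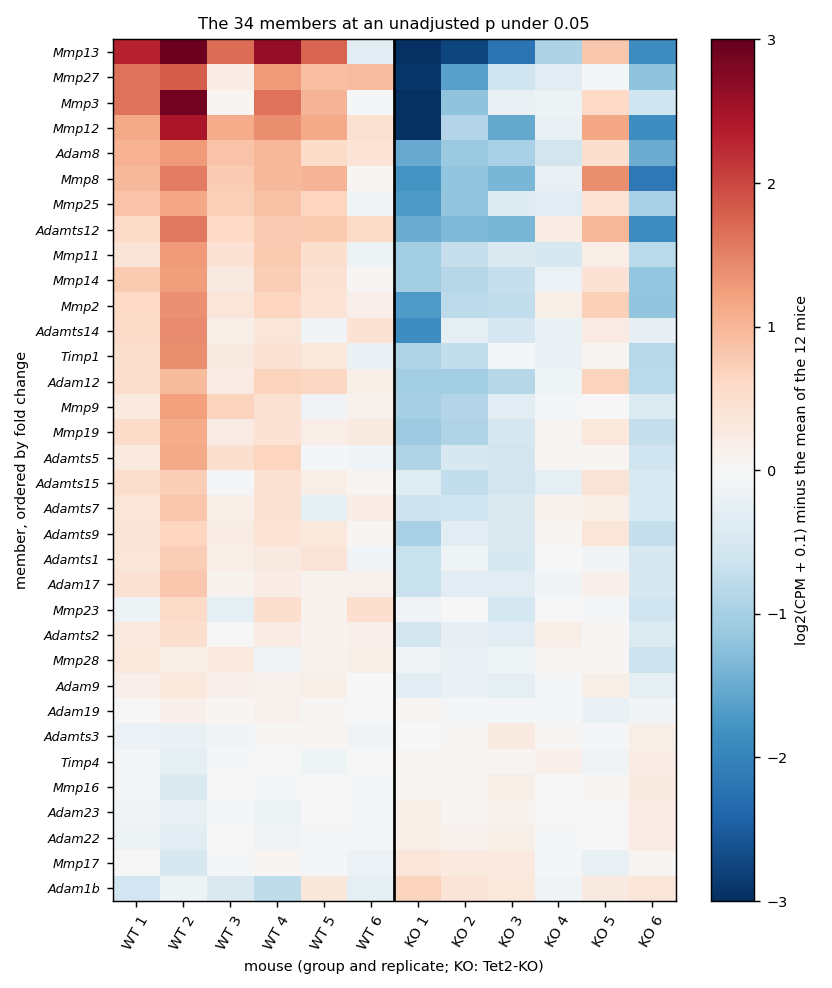
Log2(CPM + 0.1) of the 34 members at an unadjusted p below 0.05 (rows, ordered by fold change), minus the mean of the 12 mice, in each mouse (columns); red is above and blue below that mean. WT replicate 2 is the reddest column of the lower members, and Tet2-KO replicate 5 resembles the WT columns in the upper rows.

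The genes that activate, carry or receive the products of these proteases were described by lists of 72 genes, of which 65 were tested. At an unadjusted p below 0.05, 24 were lower, against 12.2% of all genes, and 11 higher, against 10.8%, with a median log2 fold change of -0.18. Leaving out Tet2-KO replicate 1 reduced the 11 to 6, and leaving out replicate 2 of either group reduced it to 7, and with edgeR's adjustment over all genes 0 of the 65 had an adjusted p below 0.05. Of the 9 tested genes of MMP and plasmin activation 4 were lower, namely Plau (urokinase) at -1.20 (edgeR adjusted p = 0.171), its receptor gene Plaur at -1.01, Plat (tissue plasminogen activator) at -0.41 (edgeR adjusted p = 0.110) and Furin, which cuts the propeptides of several MMPs and ADAMs, at -0.32. Plau lay between 17.4 and 41.85 CPM in WT mice (median 20.5) and between 4.33 and 26.8 CPM in Tet2-KO mice (median 6.42), with Tet2-KO replicate 5 the highest of its group.

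Other inhibitors and clearance receptors showed no common direction. Reck, a membrane-anchored MMP inhibitor, lay between 17.7 and 24.5 CPM in WT mice and between 16.6 and 25.0 CPM in Tet2-KO mice, a log2 difference of -0.0264 (edgeR adjusted p = 0.902). Spock1, Spock2 and Spock3, which encode testican proteoglycans of neurons that bind MMPs, were higher at an unadjusted p below 0.05, with values of 0.25, 0.17 and 0.11, and 1 of the 3 stayed so without Tet2-KO replicate 1. Lrp1, which clears many MMP and TIMP complexes, was at -0.29 (edgeR adjusted p = 0.143). Among ADAMTS-like genes, which lack a protease domain, Adamtsl1 (-0.27) and Adamtsl3 (-0.61) were lower and Adamtsl2 (0.38) was higher at that level. Neither of the lower 2 was below it without WT replicate 2, Tet2-KO replicate 1 or Tet2-KO replicate 3.

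Of the sheddase trafficking genes, Rhbdf2, whose product iRhom2 takes Adam17 to the surface of immune cells, lay between 12.5 and 25.5 CPM in WT mice (median 14.5) and between 3.68 and 13.6 CPM in Tet2-KO mice (median 5.21). Its log2 fold change was -1.18 (SE 0.36, edgeR adjusted p = 0.126), whereas the related Rhbdf1 was at -0.20 (edgeR adjusted p = 0.389). Of the tetraspanins that guide Adam10, Tspan14 was lower and Tspan5 and Tspan33 were higher at an unadjusted p below 0.05. Among 18 tested substrates and receptors shed by ADAMs, 7 were lower, with Cxcl16 at -1.12 and Tnf at -1.12 among them, and 2 were higher, Cdh2 (N-cadherin) at 0.18 and Nrg1 at 0.14, the latter not below that level in 8 of the 12 fits without 1 mouse. The ligands of Adam22 and Adam23 had the same sign as their receptors for Lgi1 at 0.24, Lgi2 at 0.14 and Lgi3 at 0.16, and the opposite one for Lgi4, the ligand of peripheral glia, at -0.22, all at an unadjusted p below 0.05. These calls rested on single mice, as 1 of the 3 positive ones was left without WT replicate 2 or without Tet2-KO replicate 1, 2 or 3, and that of Lgi4 was lost without WT replicate 2 or Tet2-KO replicate 1, 5 or 6. Of the 13 matrix substrates 6 were lower, among them Fn1 (fibronectin) at -1.10 and Col4a1, a basement membrane collagen, at -0.68, both with an edgeR adjusted p of 0.123. The brain proteoglycans Acan, Bcan and Ncan, which ADAMTS enzymes cut, were at -0.0507, 0.0673 and 0.0436 with unadjusted p-values of 0.650, 0.212 and 0.404.

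Markers of several cell types differed alongside the members, and their part in these differences was not tested. All 8 monocyte and macrophage markers were lower at an unadjusted p below 0.05, with a summed level between 382 and 996 CPM in WT mice and between 33.1 and 501 CPM in Tet2-KO mice, and between 33.1 and 226 CPM without Tet2-KO replicate 5. Of 7 markers of lesion phagocytes 6 were lower, with sums of 864 to 2093 CPM in WT mice and 68.5 to 1293 CPM in Tet2-KO mice, of which none but replicate 5 was above 483.5 CPM. Without WT replicate 2, 2 of these 7 markers were below an unadjusted p of 0.05, and without Tet2-KO replicate 5 all 7 were. All 7 fibroblast markers were lower, with sums of 639 to 1410 CPM in WT and 195 to 810 CPM in Tet2-KO mice, and up to 549 CPM without replicate 5, and 4 of the 7 were below that level without WT replicate 2. In each of these 3 lists the highest mice were WT replicate 2 in its group and Tet2-KO replicate 5 in its group, as in most lower members. This was not particular to these lists. WT replicate 2 had the highest WT sum in every list but that of neurons, among them astrocytes, oligodendrocytes and choroid plexus. Tet2-KO replicate 5 also had the highest Tet2-KO sum of neutrophil, B cell and mural cell markers.

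Neutrophil markers were at low levels. Of 9 markers 3 were tested and were lower at an unadjusted p below 0.05, against 12.2% of all genes. S100a8 and S100a9 passed the adjusted threshold (edgeR adjusted p = 0.0364 for both), which 0.0246% of all genes did. Ly6g and Elane were at or below 0.143 CPM in every mouse. The summed neutrophil level was 6.73 to 18.6 CPM in WT mice and 1.995 to 4.54 CPM in Tet2-KO mice. The 4 tested T cell markers were all lower, with sums of 10.05 to 17.4 CPM against 5.87 to 10.6 CPM, and the only tested B cell marker, Cd79b, was lower, with sums of that list of 1.98 to 5.65 CPM against 0.460 to 2.03 CPM.

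On the side of the higher members, 7 of 8 neuron markers were higher at an unadjusted p below 0.05, against 10.8% of all genes. Their sums were 2951 to 4244 CPM in WT mice and 3832 to 5153 CPM in Tet2-KO mice. When either Tet2-KO replicate 1 or 3 was left out, 3 of them stayed below that level, and 4 stayed so when WT replicate 1, WT replicate 2 or Tet2-KO replicate 6 was left out. WT replicate 2 had the lowest neuron sum, as it had the lowest Adam22, Adam23 and Mmp16. Astrocyte markers had 0 of 7 lower and 1 higher, oligodendrocyte markers 0 of 6 in either direction, homeostatic microglia markers 1 of 8 lower, endothelial markers 3 of 7, mural cell markers 1 of 6 and choroid plexus markers 1 of 6 lower. Lists with 1 marker at that level were close to the shares of all genes, 12.2% lower and 10.8% higher. The single astrocyte and microglia markers, Slc1a2 and Olfml3, were not below that level in 10 and 7 of the 12 fits without 1 mouse. No list held a marker that was at 0 in all mice.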

How the data were processed

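Brains of 6 WT and 6 Tet2-KO mice were sequenced as paired reads of 150 bases after depletion of ribosomal RNA. The authors trimmed the reads with Trimmomatic 0.36, aligned them with STAR 2.5.2b to mm10 and, with featureCounts (Subread 1.5.2), counted the reads that mapped to 1 place within exons, per the methods and the submitters' processing notes, and deposited the read counts per gene without normalization. The strand setting is not given in the sources used here, so reads of genes that overlap on opposite strands cannot be told apart. Groups came from sample titles and genotypes. Names and coordinates were taken from GENCODE M21 (mm10), with a symbol for 48970 of 49315 identifiers.

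Here, edgeR 4.0.16 in R 4.3.3 was used to filter genes (filterByExpr), to scale libraries (TMM) and to run a robust quasi-likelihood F test on all 12 mice without covariates, with Benjamini-Hochberg adjustment over 20290 genes and a threshold of 0.05. Each SE was obtained from the fold change and its F statistic. Levels are CPM on TMM-scaled libraries, divided by exon length for comparisons between genes. Total counts were between 12000261 and 21049763 per mouse, so a member with a few reads per mouse has a wide sampling error. Alternatives were the DESeq2 1.42.0 Wald test, limma 3.58.1 voom with quality weights, scaling by the upper quartile or by DESeq2 size factors, no filter, at least 10 counts in every library, members with 100 or more reads, a replicate block, and each library left out. The DESeq2 Wald test was the one that the authors used to compare the groups. The scripts were tested on simulated counts. The members, their subfamilies, the lists of partner genes and markers and the AP-1 letters were chosen with earlier results of these data known. The text gives in full the 8 lower and 6 higher members with the smallest p, the smallest p of each family and a list of widely studied members, and of the partner and marker lists mainly the 2 of lowest p on either side. Other partner genes and Adam12 and Adamts12 were named after their values were seen. Values of a few other genes of these lists are not reported here. Libraries of a group differed by more than sampling noise. Same-numbered mice of the groups did not deviate together (correlations -0.17 to 0.23), so the numbers were not used as pairs.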

Additional observations from a re-analysis of the deposited data

Results flagged for a closer look

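In 17 of 126 groups of 6 mice (63 members in both groups) 1 mouse lay far from the others, by a gap of more than 0.625 of the group's range. Chance alone gives about 1 such mouse in 20 groups, and members that share a mouse are not independent. WT replicate 2 was that mouse in 11 members. It was high in Timp1 (17.9 CPM), Mmp19 (10.8 CPM), Mmp2 (41.8 CPM), Mmp12 (11.0 CPM), Mmp3 (36.7 CPM), Adamts12 (22.0 CPM), Adamts14 (5.08 CPM), Adam10 (137 CPM) and Timp2 (557 CPM), and low in Mmp16 (46.8 CPM) and Adam11 (75.1 CPM). Tet2-KO replicate 5 was high in Adam8 (19.95 CPM, the next Tet2-KO mouse at 9.64 CPM), Mmp13 (4.54 CPM, the next at 1.28 CPM), Mmp8 (1.96 CPM, the next at 0.564 CPM) and Adamts15 (20.1 CPM, the next at 12.8 CPM). On few reads, Tet2-KO replicate 4 was high in Adam3 (0.872 CPM) and Tet2-KO replicate 6 in Adam5 (0.691 CPM).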

How the results depend on the processing

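With all 12 mice and edgeR, 0 members had an adjusted p below 0.05, and the count was also 0 with DESeq2 size factors, upper quartile scaling and at least 10 counts in every library. It was 20 with the DESeq2 Wald test, 25 with limma-voom and 1 (Mmp27) without a filter on low counts. Of all genes, 4.81% were lower and 2.7% higher past the threshold with DESeq2, and 7.01% and 2.91% with limma-voom. The share of all genes without a filter was not computed. With each mouse left out in turn it was 0 to 26, and 26 came without Tet2-KO replicate 5, where 7.3% of all genes were lower and 3.7% higher. Alternatives chosen after seeing the data gave 19 (DESeq2 on every gene with a count) and 21 (without WT replicate 2 and Tet2-KO replicate 5). In the former, 692 of the 20290 genes tested with edgeR were lower past the threshold and 197 higher. In the latter, 4.94% of all genes were lower and 2.65% higher. Leaving out 1 mouse gave 23 to 31 lower and 5 to 9 higher members at an unadjusted p below 0.05, and every other alternative stayed within 1.5 times the 27 lower and 7 higher. A block by replicate number gave 0 members past the adjusted threshold, 27 lower and 6 higher, and only replicate 6 correlated best with its own number. None of the 34 members at an unadjusted p below 0.05 changed sign under any alternative. Signs changed in 4 others, each only with mice left out, where, with 1 mouse or the pair that stood apart omitted, the log2 fold change ranged from -0.0589 to 0.0492 for Adam1a, -0.13 to 0.0 for Timp3, -0.0595 to 0.24 for Adam32 and -0.0215 to 0.17 for Adamts8. Of the partner genes, 11 passed the adjusted threshold with DESeq2, with and without the filter, 22 with limma-voom and 16 without both mice, and with 1 mouse left out 0 to 22 passed, 16 to 30 were lower and 6 to 14 higher at an unadjusted p below 0.05 (24 and 11 with all mice). The shares of all genes in these fits with adjustment are those given above for the members. The lowest count of higher partner genes came without Tet2-KO replicate 1 (6), and it was 7 without WT replicate 2 or Tet2-KO replicate 2. The cause of these shifts was not tested. Members with under 10 reads in a mouse, such as Mmp8, Mmp12 and Mmp27, are limited by depth.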
